A study of Mus musculus with 27 samples.

Results

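The 4 lymphomas of the mouse line labelled co were compared with 14 lymphomas of the lines labelled hv and cr, out of 27 samples in all. The co lymphomas were chosen by sample title and are T9, T30 and T34 from lung and T2 from a peripheral lymph node. The 7 hv lymphomas came from lung (5) and peripheral nodes (2), and the 7 cr lymphomas from lung (3) and mesenteric nodes (4). All were B220-purified tumour cells of c-myc Igh transgenic mice, that is, mice with a Myc transgene tied to the immunoglobulin heavy chain locus. The labels do not say what co, hv and cr stand for, nor the strain, age or number of animals, so a p-value here reflects only how much these tumours vary. The other 9 samples were 8 of non-malignant splenic B cells, resting or treated with LPS for 2 days, and 1 lung lymphoma, T39, which is titled hv but described as CO. T39 was left out of the main comparison and is given beside it where it bears on a result. Depth estimated from the deposited values was 16437800 to 23195200 read pairs in the co lymphomas, against 11531400 to 23689600 in the hv and cr lymphomas.

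MYC is a transcription factor that drives growth, ribosome production and division, and its translocation to an immunoglobulin locus is the classic lesion of Burkitt lymphoma and of mouse plasmacytoma. Cells with forced MYC expression tend to be removed through the ARF (Cdkn2a) and p53 (Trp53) pathway or through BH3-only proteins, and loss of one of these brakes is common in MYC-driven B-cell tumours. A B cell usually expresses 1 heavy chain and 1 light chain. A tumour grown from a single cell thus tends to show 1 leading variable gene per chain. A further variable gene does not by itself show another clone. The variable genes act as a partial tag of the clone, since different tumours can share a leading gene.

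The 4 co lymphomas had 4 different pairs of leading heavy and kappa variable genes. Of the TPM of all heavy chain variable genes, Ighv5-16 took 93.5% in T9, Ighv1-52 took 99.2% in T34 and Ighv11-2 took 93.7% in T2. In T30 the leading gene was also Ighv1-52, but with 26.7%, ahead of Ighv1-80 with 18.7% and Ighv1-55 with 17.4%. Genes of the Ighv1 family together took 99.97% in T30, and kallisto can divide the reads of 1 rearranged gene among family members that resemble each other, so these shares do not count clones. The leading kappa variable genes were Igkv4-55 with 50.4% in T9, Igkv6-15 with 98.2% in T30, Igkv1-117 with 98.3% in T34 and Igkv14-126 with 91.0% in T2. In T9 the Igkv4 family together took 81.7%, with the same limit on how reads are divided. Ighv1-52 thus had the largest heavy share in both T30 and T34, but at 26.7% the gene rearranged in T30 is uncertain. Their leading kappa genes differed. None of the 3 leading heavy genes passed 0.524% of the heavy variable TPM in any hv or cr lymphoma. They were chosen for leading in co tumours, and other genes led the hv and cr lymphomas with 59.4% to 99.9%. Low shares there follow from this and are not particular to co. Ighv8-12 and Ighv5-9-1, for example, led in 1 hv and 1 cr lymphoma and in 0 co lymphomas. Igkv1-117, the kappa gene of T34, also led in 1 hv and 1 cr lymphoma, while Igkv1-135 led in 5 of the 14 hv and cr lymphomas and in 0 of the 4 co lymphomas. In non-malignant B cells of the co line the leading heavy gene took 5.27% in resting splenic B cells and 4.74% in LPS-treated ones, with 1 sample each.

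Ighv11-2 with Igkv14-126, the pair found in T2, is known in mice as the receptor of B-1a cells that bind phosphatidylcholine, a self-renewing innate-like B-cell type. Ighv11-2 took at most 0.00870% of the heavy variable TPM in the 14 hv and cr lymphomas, where other genes led, and 0.167% in resting co splenic B cells. The germline sequences of these genes are shown since they led in co tumours. A germline gene alone does not identify a clone, as Igkv1-117 led in T34 and in 1 hv and 1 cr lymphoma. They are the last 300 bases of the annotated coding part in GENCODE transcripts of GRCm38, 5′ to 3′, and the capitals mark the last in-frame cysteine codon, after which the third complementarity-determining region begins. The 3 heavy genes lie on the minus strand at chr12:113838526-113839010 for Ighv5-16, chr12:115145487-115145919 for Ighv1-52 and chr12:114048241-114048812 for Ighv11-2, and Igkv14-126 lies on the plus strand at chr6:67896177-67896642. These genes were picked after their values were seen.
Ighv5-16: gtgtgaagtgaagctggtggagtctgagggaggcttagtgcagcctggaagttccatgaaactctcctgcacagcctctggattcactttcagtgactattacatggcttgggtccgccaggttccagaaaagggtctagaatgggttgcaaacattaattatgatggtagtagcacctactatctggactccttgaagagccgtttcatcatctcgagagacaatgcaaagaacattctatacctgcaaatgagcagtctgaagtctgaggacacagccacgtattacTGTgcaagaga
Ighv1-52: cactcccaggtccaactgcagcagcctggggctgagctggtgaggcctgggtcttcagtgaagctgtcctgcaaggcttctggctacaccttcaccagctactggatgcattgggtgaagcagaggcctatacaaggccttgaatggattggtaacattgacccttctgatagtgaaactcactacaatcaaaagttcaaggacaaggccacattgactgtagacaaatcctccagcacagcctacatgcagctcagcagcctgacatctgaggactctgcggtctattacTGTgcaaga
Ighv11-2: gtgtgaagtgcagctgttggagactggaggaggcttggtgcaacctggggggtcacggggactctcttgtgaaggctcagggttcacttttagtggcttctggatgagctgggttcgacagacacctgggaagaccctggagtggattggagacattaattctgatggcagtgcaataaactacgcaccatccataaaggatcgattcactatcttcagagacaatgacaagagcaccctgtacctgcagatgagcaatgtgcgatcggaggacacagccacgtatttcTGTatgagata
Igkv14-126: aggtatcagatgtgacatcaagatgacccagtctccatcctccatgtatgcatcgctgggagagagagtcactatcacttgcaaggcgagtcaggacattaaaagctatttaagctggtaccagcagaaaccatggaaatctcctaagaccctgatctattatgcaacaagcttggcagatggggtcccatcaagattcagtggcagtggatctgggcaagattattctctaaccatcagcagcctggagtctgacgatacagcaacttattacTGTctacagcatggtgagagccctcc
Globally aligned, the stretches of Ighv5-16 and Ighv11-2 were identical in 71.8% of columns, those of Ighv5-16 and Ighv1-52 in 62.3%, and those of Ighv1-52 and Ighv11-2 in 61.4%.

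**Figure D1:**
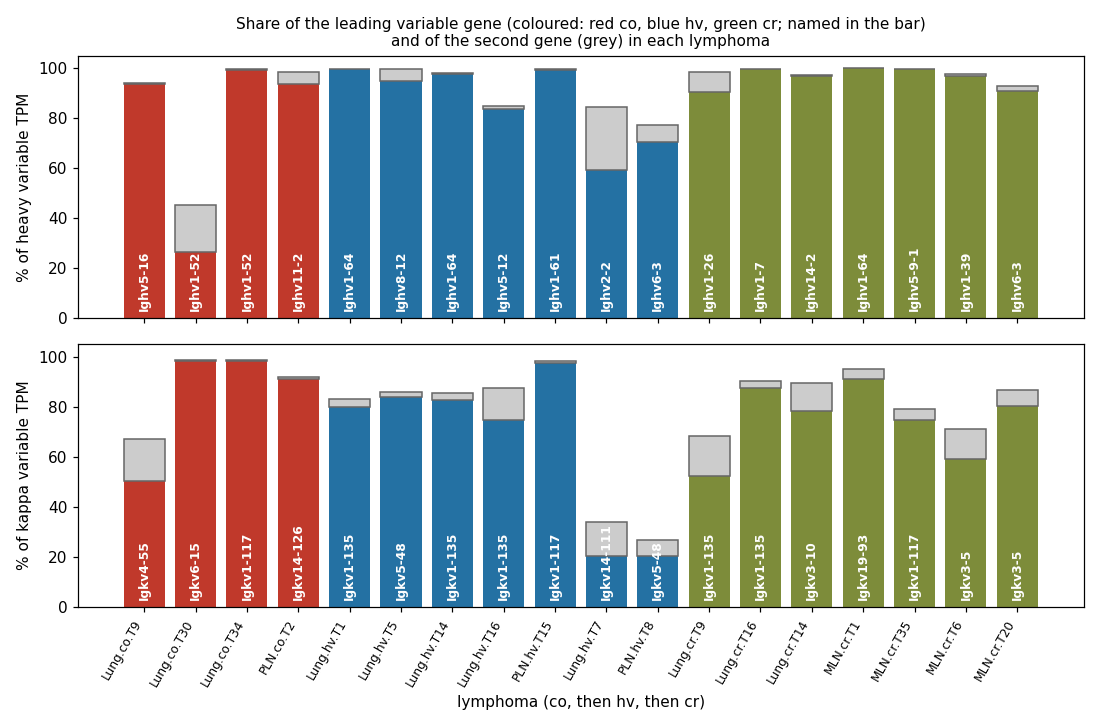
Share of the leading variable gene (coloured, named in the bar) and of the second gene (grey) in the TPM of all heavy (top) and kappa (bottom) variable genes, in percent, for each of the 4 co, 7 hv and 7 cr lymphomas. Among co lymphomas the heavy bar of T30 is the low one, at 26.7%, and the kappa bar of T9 is the low one, at 50.4%.

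Heavy chain constant genes encode the antibody classes. Ighm, the IgM gene, took 89.8%, 92.5%, 95.9% and 90.2% of heavy constant TPM in co T9, T30, T34 and T2, against 78.5% to 98.4% in the hv and cr lymphomas. All 4 co tumours were thus mainly IgM. Ighd, the IgD gene, was next in each, with 4.67%, 4.01%, 2.27% and 9.63% in T9, T30, T34 and T2. Switched classes were minor and differed by tumour. Ighe (IgE) had 25.4 TPM, or 0.561% of heavy constant TPM, in T30 and was listed at 0 in T9, T34 and T2, against at most 0.293 TPM in any hv or cr lymphoma. Ighg3 (IgG3) took 2.23% in T30 and 1.35% in T34, against 0.0733% in T9 and 0.0521% in T2. It took 0.00226% to 2.05% in the hv and cr lymphomas. Igha (IgA) took 2.34% in T9 and 0.156% to 0.504% in the other 3, against 0.00665% to 3.94% in the hv and cr lymphomas. The lambda share was taken as Iglc2 in the TPM of Iglc2 and Igkc, without other lambda constant genes. It was 1.88%, 28.4%, 26.9% and 10.7% in co T9, T30, T34 and T2, and 1.18% to 28.0% in the hv and cr lymphomas. Averages of 11 such shares were compared by two-sided exact permutation tests over the 3060 ways to choose 4 of 18 lymphomas. None passed, and the smallest Benjamini-Hochberg adjusted p was 0.580. The leading kappa gene averaged 84.5% ± 22.95 in co lymphomas and 70.2% ± 24.1 in hv and cr lymphomas (SD, n = 4 and 14, adjusted p = 0.580, exact permutation test).

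Myc itself was at 105.1, 162, 181 and 298 TPM in co T9, T30, T34 and T2. In hv lymphomas it ran from 78.8 through a median of 141 to 294 TPM, and in cr lymphomas from 114 through a median of 197 to 362 TPM. The co range thus lay inside that of the other lines. Mean log2(TPM + 1) was 7.45 ± 0.62 in co and 7.44 ± 0.69 in hv and cr lymphomas (SD, n = 4 and 14), a difference of 0.01 (two-sided exact permutation test, p = 0.977). Of the 30 MYC target and ribosome biogenesis genes listed, 17 had a positive and 13 a negative fold change, with a median log2 fold change of 0.02, beside 0.03 over all genes tested.

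Across the transcriptome, no gene passed in the comparison of the co lymphomas with the mean of the hv and cr lymphomas. Of 12480 genes with at least 1 TPM in 4 of the 18 lymphomas, 0 (0.0%) had an adjusted p of 0.05 or less in limma, a linear model fit across all genes, here on log2(TPM + 1) with line and tissue as terms, and the smallest adjusted p was 0.391. At an unadjusted p under 0.05 there were 406 genes (3.25%), 241 of them higher in co lymphomas (1.93%) and 165 lower (1.32%). This share is below the one that such a threshold gives by chance alone. Against hv alone 0 genes passed (393, or 3.15%, at unadjusted p under 0.05, with 1.14% higher and 2.01% lower), and against cr alone 0 genes passed (337, or 2.7%, with 1.91% higher and 0.793% lower). The balance of directions depended on scaling: with TPM rescaled after removing abundant genes, 210 genes were higher and 226 lower at the same threshold. Without co T2, 2 genes passed (Calcrl and Gpm6a), and without co T9, 1 gene (Rasal1). The balance also depended on single tumours, with 580 higher and 135 lower without co T9, and 141 higher and 232 lower without co T34. At 8 genes (0.0641%) the groups did not overlap: 5 genes, among them Bid, Cops7a, Thumpd3 and Arhgap10, were higher in all 4 co lymphomas than in all 14 others (0.0401%), and Pdxk, Ttc7b and Adamts14 were lower (0.024%). With 3060 ways to choose 4 of 18 lymphomas, chance alone separates about as many of 12480 genes as these 8. The values below describe the genes with the smallest p and carry no call.

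Among genes on the high side in co lymphomas, Calcrl, the receptor subunit for the peptides CGRP and adrenomedullin, had 5.42, 10.02, 19.4 and 3.09 TPM in co T9, T30, T34 and T2. In hv lymphomas its lowest, median and highest values were 0.221, 1.69 and 3.61 TPM, and in cr lymphomas 0.0477, 0.355 and 0.953 TPM. The 3 lung co lymphomas were above all 14 others, and T2 was below 1 hv lymphoma. The log2 fold change was 2.23 (SE 0.40, 95% interval 1.39 to 3.07, limma adjusted p = 0.391), and resting co splenic B cells had 8.42 TPM. Parp8, an ADP-ribosyltransferase family member, had 11.2, 18.1, 11.3 and 5.79 TPM in co T9, T30, T34 and T2. In hv lymphomas it reached 3.06 TPM and in cr lymphomas 6.08 TPM, with medians of 0.835 and 0.589 TPM. Here too 3 co lymphomas were above all others, with T2 below 1 cr lymphoma (log2 fold change 2.26, SE 0.47, limma adjusted p = 0.920).

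Thumpd3, a tRNA methyltransferase, showed no overlap at a small fold: 85.6, 81.7, 73.7 and 80.6 TPM in co T9, T30, T34 and T2, against 47.7 to 69.0 TPM in hv and 35.1 to 61.7 TPM in cr lymphomas (log2 fold change 0.57, SE 0.16). Bid, a BH3-only protein that links death receptors to mitochondrial cell death, was just apart, with 79.5, 62.04, 70.4 and 72.0 TPM in co T9, T30, T34 and T2, against at most 62.03 TPM in hv and 57.3 TPM in cr lymphomas (log2 fold change 0.78, SE 0.23). Lck, a SRC-family kinase of T cells that B-1a cells also express, had 10.6, 61.2, 40.8 and 14.6 TPM in co T9, T30, T34 and T2, against 1.66 to 13.8 TPM in hv and 3.98 to 16.2 TPM in cr lymphomas (log2 fold change 1.71, SE 0.44). Only T30 and T34 were clear of the other lines. Mpp6, a membrane scaffold protein, Rab43, a small GTPase of vesicle transport, Bmt2, an S-adenosylmethionine sensor upstream of mTORC1, and Cers6, a ceramide synthase, made up the rest of the 8 genes with the smallest p on this side, with log2 fold changes of 1.16, 1.001, 1.14 and 1.52. In each of these 4 at least 1 co lymphoma lay inside the range of the other lines.

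Among genes on the low side in co lymphomas, Prkacb, a catalytic subunit of protein kinase A, had 28.6, 19.5, 32.1 and 26.8 TPM in co T9, T30, T34 and T2, against 29.7 to 73.4 TPM in hv and 39.8 to 57.5 TPM in cr lymphomas. Only 1 hv lymphoma was below the highest co value (log2 fold change -0.89, SE 0.20, limma adjusted p = 0.920). Arfgef2, an activator of ARF GTPases at the Golgi, had 12.7, 14.7, 18.8 and 13.4 TPM in co T9, T30, T34 and T2, against 21.6 to 38.8 TPM in hv and 17.9 to 27.3 TPM in cr lymphomas (log2 fold change -0.80, SE 0.18). Cyth1, another ARF activator, and Cytip, which binds cytohesins, had log2 fold changes of -0.95 and -0.82. Rgs1 and Rgs2, which switch off G-protein signals from chemokine and other receptors, had -2.92 and -2.25. Rgs2 was at 34.2, 8.41, 19.7 and 124 TPM in co T9, T30, T34 and T2, with medians of 89.0 TPM in hv and 182 TPM in cr lymphomas, so that T2 was above the other co tumours and above the hv median.

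Plk2, a polo-like kinase and target of p53, spanned most. It was at 19.2, 0.163, 0.592 and 0.134 TPM in co T9, T30, T34 and T2, against 5.30, 25.1 and 352 TPM (lowest, median, highest) in hv and 1.10, 152 and 407 TPM in cr lymphomas. T30, T34 and T2 were below all 14 others, and T9 was not (log2 fold change -5.11, SE 1.31, limma adjusted p = 0.999). Dennd3, an activator of RAB12, had 10.8, 0.167, 1.23 and 4.55 TPM in co T9, T30, T34 and T2, and medians of 11.8 TPM in hv and 12.0 TPM in cr lymphomas (log2 fold change -1.81, SE 0.50).

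**Figure D2:**
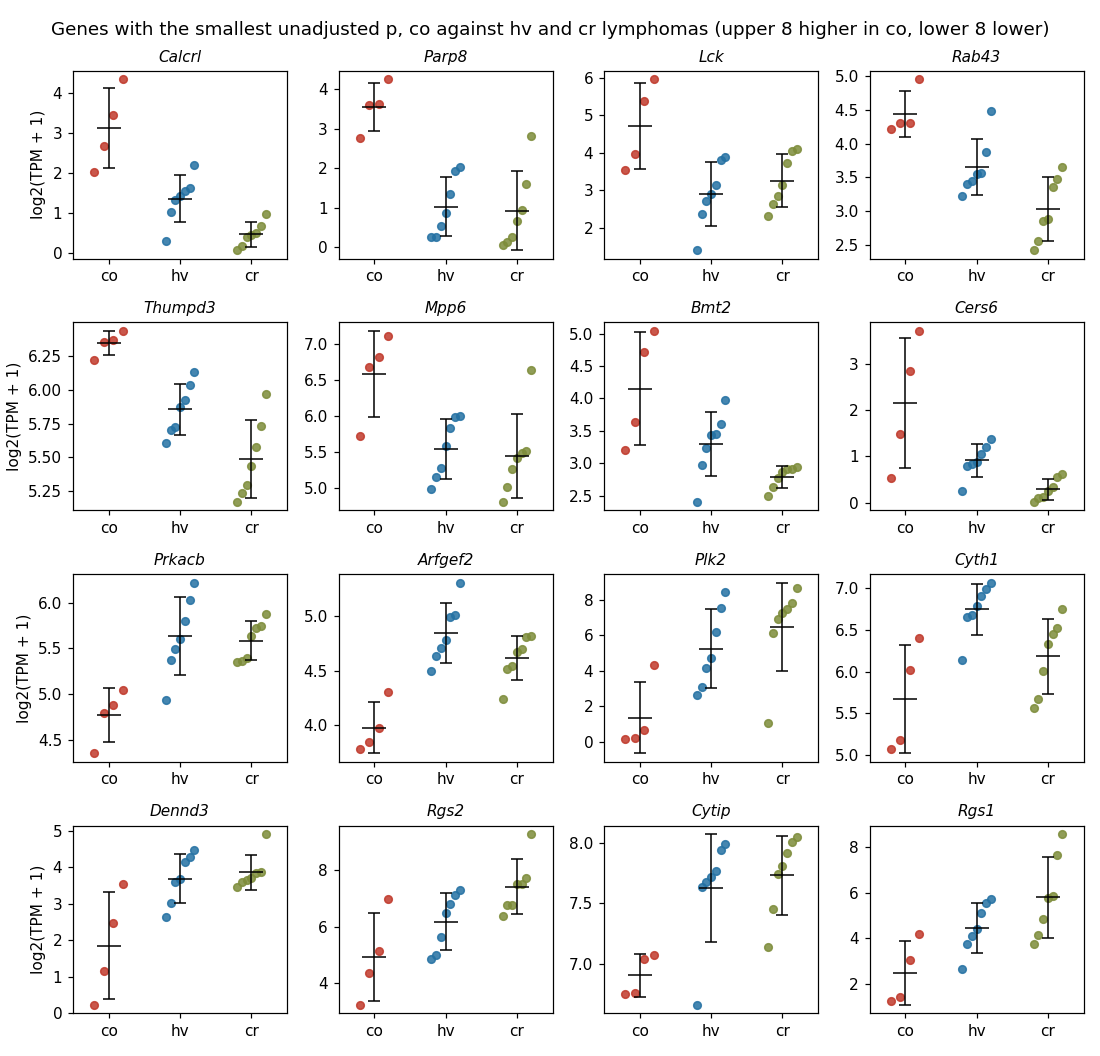
Levels, as log2(TPM + 1), of the 16 genes with the smallest unadjusted p, 8 on each side, in co (n = 4), hv (n = 7) and cr (n = 7) lymphomas; points are lymphomas sorted by value, and bars show the mean and SD. No gene passed the adjusted threshold; of the 16, only Thumpd3 shows no overlap between co and the other lines.

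The 18 names were written in 2 styles, joined (9 lung lymphomas: 3 co, 3 hv and 3 cr) or separated (the rest, T2 included), and this style may mark a batch. Within the joined style, 17 of 11492 genes (0.148%) passed in the comparison of 3 co with 6 hv and cr lymphomas, 11 higher and 6 lower, against 0 with all 18 (limma adjusted p of 0.05 or less in each). Cuedc1 and an identifier without symbol had identical values and account for 2 of the 6 lower genes. Gimap4, a GTPase of lymphocytes, had 77.6, 445 and 355 TPM in co T9, T30 and T34, against 0.608 to 4.03 TPM in the 6 (log2 fold change 6.18, SE 0.54, limma adjusted p = 0.00326). St3gal6, a sialyltransferase, had 68.7, 112 and 74.4 TPM in co T9, T30 and T34, against 4.30 to 11.4 TPM in the 6 (log2 fold change 3.28, SE 0.30). Itgal, the alpha chain of the integrin LFA-1, had 10.53, 36.8 and 40.1 TPM in co T9, T30 and T34, against 1.03 to 2.98 TPM in the 6 (log2 fold change 3.29, SE 0.44). The other genes that were higher were Calcrl, Gimap6, the tetraspanin gene Tspan31, the membrane protease gene St14, Rhobtb1, the cytokine gene Tnf, Lst1 and Gm8369.

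The lower genes in this comparison were Rgs2, Abcb4, Bag2, Cuedc1 with its twin, and Brwd1. Abcb4, a phospholipid transporter, was at 0.876, 0.317 and 0.322 TPM in co T9, T30 and T34, against 6.20 to 16.7 TPM in the 6 (log2 fold change -3.01, SE 0.34). Bag2, a cochaperone of HSP70, was at 8.43, 6.98 and 9.68 TPM in co T9, T30 and T34, against 26.3 to 79.8 TPM in the 6 (log2 fold change -2.36, SE 0.32). Brwd1, a chromatin reader needed for kappa gene rearrangement, was at 21.4, 22.2 and 29.99 TPM in co T9, T30 and T34, against 68.5 to 194 TPM in the 6 (log2 fold change -2.19, SE 0.34). The node co lymphoma T2 did not share these levels, except at Gm8369, with 129 TPM against 128 to 168 TPM in the lung co lymphomas. At 11 of the 17 genes T2 lay inside the range of the 6 hv and cr lymphomas, Gm8369 included, where that range overlaps the lung co levels. At 5 genes T2 lay between the ranges, and at St14, with 0.324 TPM, it was below the 6, which had 0.580 to 2.18 TPM. Several hv lymphomas of the separated style did: lung hv T16 reached the level of the nearest lung co lymphoma at 14 of the 17 genes, node hv T15 at 8 and node hv T8 at 8, and of the 4 cr lymphomas and hv T7 none at more than 1. Gimap4 was at 5.56 TPM in co T2, against 652, 280 and 175 TPM in hv T16, T15 and T8. T39 reached that level at 12 of the 17 genes.

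**Figure D3:**
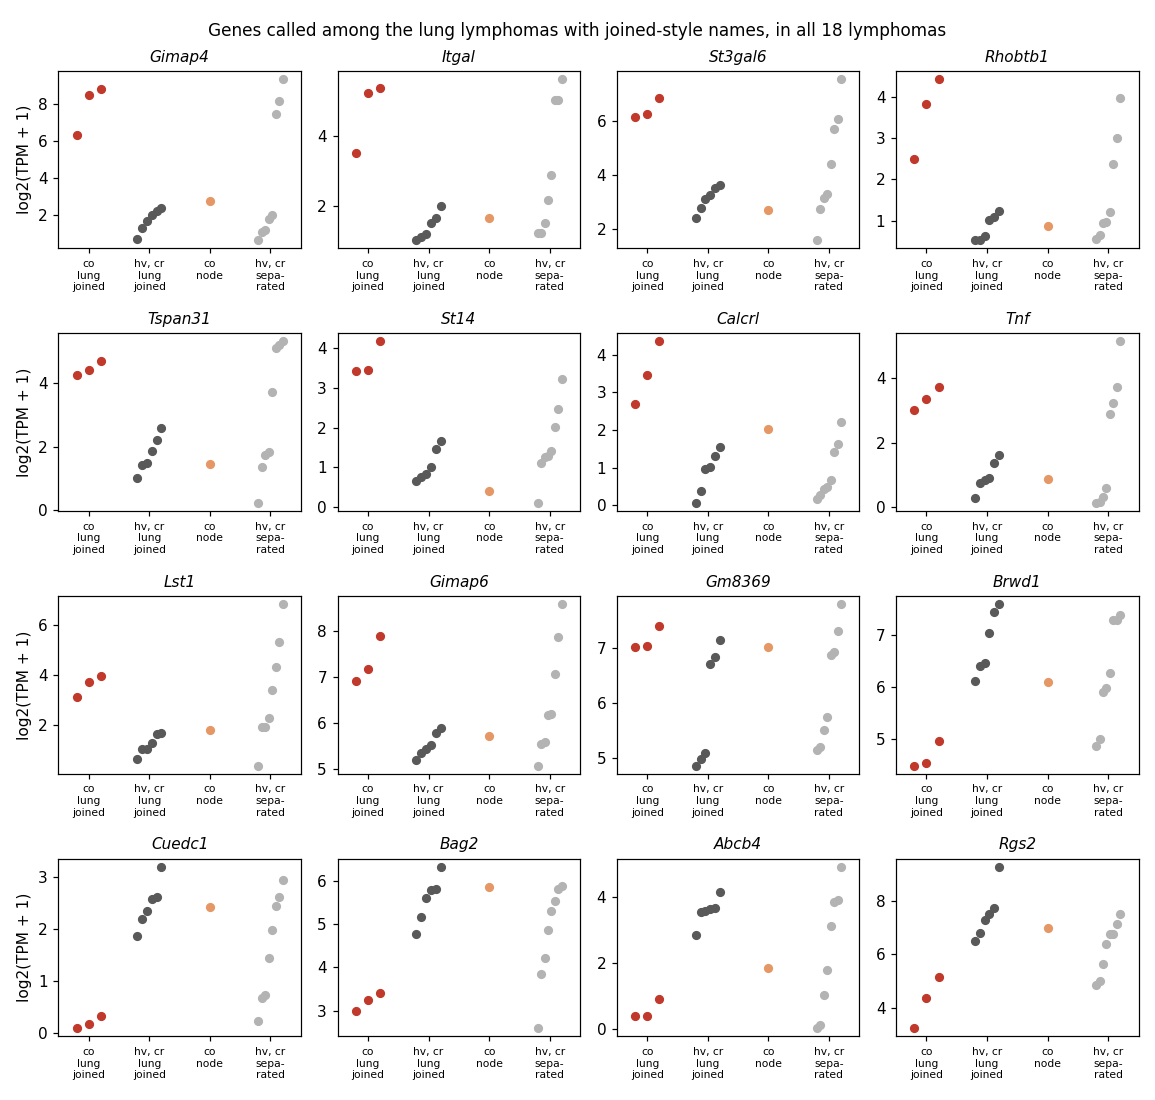
Levels, as log2(TPM + 1), of the 16 genes with a symbol that passed among lymphomas of the joined naming style; each point is a lymphoma, with the 3 lung co and the 6 lung hv and cr lymphomas of that style on the left and node co T2 and the 8 hv and cr lymphomas of the separated style on the right. The left groups do not overlap in any panel except Gm8369, T2 mostly lies with hv and cr, and in many panels separated-style lymphomas reach the co level.

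The co lymphomas differed among themselves about as much as the hv lymphomas did. Over 12328 genes without immunoglobulin variable, diversity and joining genes, the Pearson correlation of log2(TPM + 1) between pairs of co lymphomas ran from 0.877 to 0.949 (6 pairs, median 0.889), within hv from 0.814 to 0.947 (median 0.892), within cr from 0.898 to 0.974 (median 0.924), and between co and the other lines from 0.815 to 0.952 (56 pairs, median 0.903); these correlations are across genes and describe the libraries. T30 was nearest to T34 (0.949), and T34 was nearest to T39 (0.950) and next to T30 (0.949). T9 was nearest to lung cr T9 (0.952), and T2 to lung cr T16 (0.952) and hv T1 (0.951). Co T9 was the lowest of the 18 lymphomas at 1096 genes (8.78%) and the highest at 272 (2.18%), while T34 was the highest at 1170 (9.38%) and the lowest at 138 (1.11%). These counts lay inside the range of the hv and cr lymphomas, which were highest at 155 to 2207 genes and, for all but T34, inside that for the lowest, at 159 to 2008 genes.

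The 8 genes that ranged most among the co lymphomas followed these likenesses in part. Fcmr, the receptor for the IgM Fc part, had 3.98, 923, 409 and 110 TPM in co T9, T30, T34 and T2, against 7.36 to 159 TPM in hv and 1.02 to 151 TPM in cr lymphomas. Cd83, an activation antigen of B cells and dendritic cells, had 0.739, 236, 103 and 14.6 TPM in co T9, T30, T34 and T2. Ly6k had 0.364, 278 and 208 TPM in T9, T30 and T34 and was listed at 0 in T2. Iigp1, an interferon-inducible GTPase, had 0.160, 154, 58.8 and 0.596 TPM in co T9, T30, T34 and T2, against at most 5.82 TPM in hv and 0.203 TPM in cr lymphomas. These 4 were high in T30 and T34. Vpreb3, a chaperone of light chain assembly in early and transitional B cells, was high in the other tumours, with 618, 2.46, 3.90 and 251 TPM in co T9, T30, T34 and T2. Reln, a secreted matrix protein, had 124, 1.45, 0.340 and 165 TPM in co T9, T30, T34 and T2. Lmo7 was high in T2 with 162 TPM, against 0.0624, 9.91 and 8.81 TPM in T9, T30 and T34. Vpreb3 and Reln ranged over 7.48 and 6.95 log2 units in co lymphomas, against 8.80 and 8.42 in the hv and cr lymphomas.

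The last of the 8 was Cdkn2a, the ARF and INK4A gene, with 0.0585, 170, 2.54 and 110 TPM in co T9, T30, T34 and T2. Trp53 was at 75.8, 0.552, 67.6 and 0.192 TPM in co T9, T30, T34 and T2. In each co tumour, then, 1 of these genes was high and the other low: Cdkn2a was over 100 TPM in T30 and T2, where Trp53 was under 1 TPM, and Trp53 was over 60 TPM in T9 and T34. In resting co splenic B cells Trp53 was at 72.2 TPM and Cdkn2a at 0.124 TPM. In hv and cr lymphomas Trp53 ranged from 0.275 to 84.5 TPM and Cdkn2a from 0 to 124 TPM. The Cdkn2a level of co T30 was above that range and the Trp53 level of co T2 below it. Low Trp53 with high Cdkn2a was also found in hv T1 (0.275 and 108 TPM), hv T14 (1.43 and 80.5 TPM) and cr T16 (0.41 and 120 TPM). Both genes were expressed in hv T5 (69.0 and 124 TPM), hv T8 (53.8 and 84.4 TPM) and cr T35 (43.8 and 57.8 TPM). Mtap, the neighbour of Cdkn2a, was at 25.0, 31.4, 22.5 and 25.7 TPM in co T9, T30, T34 and T2, against 0.161 to 37.4 TPM in hv and 0.162 to 28.0 TPM in cr lymphomas, where the cr median was 0.220 TPM. T39 had 0.617 TPM.

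The D-type cyclins, which bring cells from G1 into S phase, also divided the co tumours. Ccnd1 was at 58.8, 0.560, 2.03 and 46.3 TPM in co T9, T30, T34 and T2, and Ccnd2 at 1.90, 43.5, 40.0 and 5.55 TPM. Each tumour thus had mainly 1 of the pair beside Ccnd3, which was at 28.1 to 47.7 TPM. Bcl2, the anti-death gene, had 2.07, 41.6, 40.5 and 8.72 TPM in co T9, T30, T34 and T2, against up to 22.9 TPM in hv and 7.57 TPM in cr lymphomas (log2 fold change 0.87, SE 0.63). Cd5, a B-1a and T-cell antigen, had 1.495, 9.73, 31.8 and 0.995 TPM in co T9, T30, T34 and T2, against up to 3.73 TPM in hv and 2.05 TPM in cr lymphomas (log2 fold change 1.91, SE 0.63). Cd9, a tetraspanin of marginal zone and B-1 cells, had 3.21, 83.8, 44.1 and 4.02 TPM, and Il10, a cytokine made by B-1 and regulatory B cells, had 0.0694, 8.24, 14.2 and 0.520 TPM in co T9, T30, T34 and T2. Other lines reached up to 42.0 TPM of Ccnd2, 26.8 TPM of Cd9 and 43.4 TPM of Il10, each in an hv lymphoma. Among the co lymphomas T30 and T34 thus had the higher levels of Ccnd2, Bcl2, Cd5, Cd9 and Il10, and T2, whose receptor genes are the B-1a pair, did not; the Ccnd2 and Il10 levels were also found in hv lymphomas. Of genes of immature B cells, Rag1, a recombinase subunit, was at 27.8, 1.86, 0.0464 and 1.81 TPM in co T9, T30, T34 and T2, against up to 12.7 TPM in hv and 58.2 TPM in cr lymphomas. Cd93, a marker of transitional B cells, was at 114, 0.425, 1.81 and 6.21 TPM in co T9, T30, T34 and T2, against up to 44.7 TPM in hv and 50.7 TPM in cr lymphomas. Dntt, which adds bases at the joints of receptor genes, was at 0.0416, 1.10 and 0.886 TPM in co T9, T30 and T34 and listed at 0 in T2. T9 was thus the highest co lymphoma for Rag1 and Cd93 and not for Dntt.

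**Figure D4:**
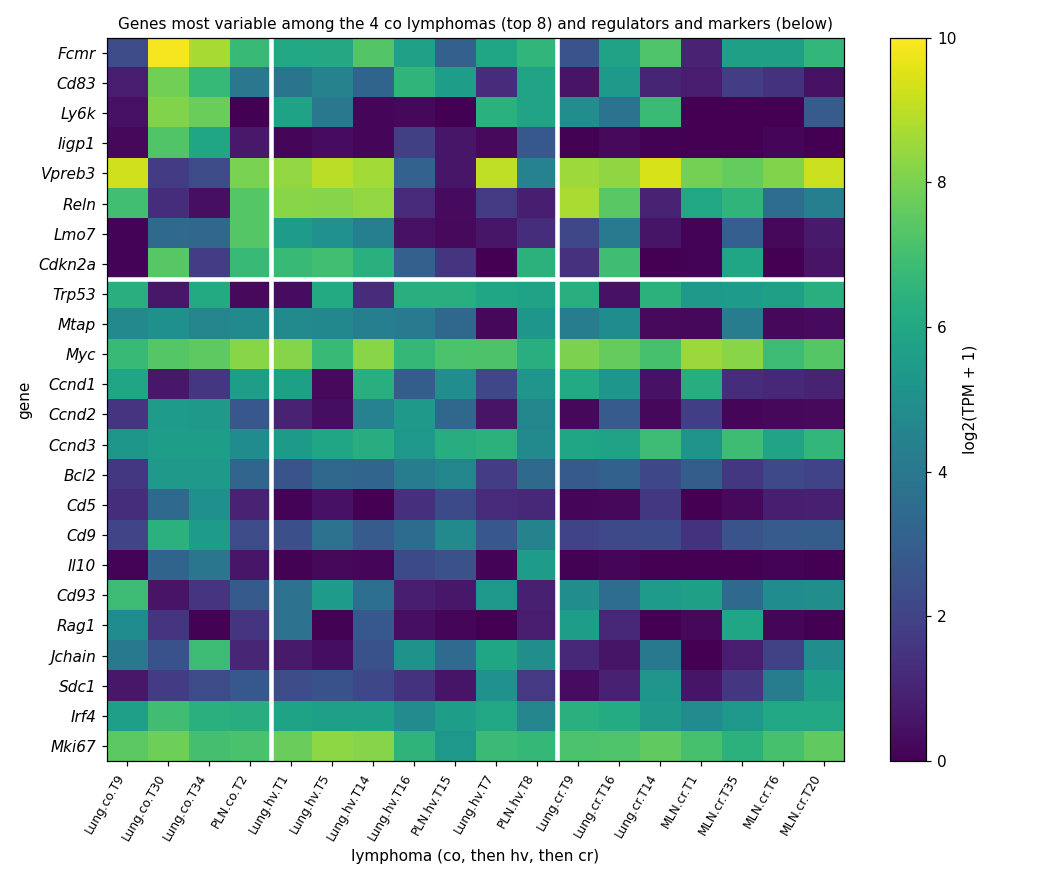
Levels, as log2(TPM + 1) by colour, of the 8 genes that ranged most among the 4 co lymphomas (upper block, chosen for that range) and of regulators and markers (lower block) in 4 co, 7 hv and 7 cr lymphomas. Co T30 and T34 share high Fcmr, Ccnd2, Bcl2 and Cd9, and Trp53 is dark in T30 and T2, at 0.552 and 0.192 TPM.

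Gene lists were described by their counts and medians beside those of all genes tested, of which 54.8% had a positive fold change. No member of any of the 26 lists passed. The 22 immediate early genes, which are switched on within minutes by receptor signals, had 4 positive and 18 negative fold changes with a median of -0.67, and 7 of them were lower at an unadjusted p under 0.05, beside 1.32% of all genes. Fos was at 8.60, 35.4, 55.8 and 39.6 TPM in co T9, T30, T34 and T2 (log2 fold change -2.50, SE 0.80, limma adjusted p = 0.999). It ran from 12.5 through a median of 96.1 to 615 TPM in hv lymphomas. In cr lymphomas it ran from 35.7 through a median of 173 to 324 TPM, so both ranges overlapped that of co. Zfp36, which destabilises cytokine mRNA, was at 38.1, 33.8, 44.6 and 55.4 TPM in co T9, T30, T34 and T2, against medians of 71.6 TPM in hv and 67.7 TPM in cr lymphomas (log2 fold change -1.27, SE 0.38). Fosb, Junb, Dusp2, Dusp5 and Klf4 were the other 5.

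Of the 30 S-phase genes 29 had a positive fold change, with a median of 0.32, and of the 30 G2/M genes 28 did, with a median of 0.20; 0 of either passed even at an unadjusted p under 0.05. Among joined-style names these medians were -0.10 and -0.13. Mki67, a marker of dividing cells, was at 177, 219, 131 and 138 TPM in co T9, T30, T34 and T2, inside the hv range of 39.8 to 318 TPM. Of the G1 genes, E2f2 had 68.8, 55.1, 53.9 and 48.3 TPM in co T9, T30, T34 and T2, against medians of 92.0 TPM in hv and 112 TPM in cr lymphomas (log2 fold change -0.95, SE 0.29). The lowest cr lymphoma, at 27.7 TPM, was below all co lymphomas. In metabolism, 15 of 20 glycolysis genes and 18 of 26 genes of cholesterol and fatty acid synthesis had a positive fold change, with medians of 0.22 and 0.23. Hk2, the first enzyme of glycolysis, was at 11.1, 29.6, 18.01 and 19.98 TPM in co T9, T30, T34 and T2, against up to 13.2 TPM in hv and 14.8 TPM in cr lymphomas (log2 fold change 1.012, SE 0.36). Cyp51, an enzyme of cholesterol synthesis, was at 28.6, 43.8, 33.5 and 24.9 TPM in co T9, T30, T34 and T2, with medians of 24.8 TPM in hv and 19.2 TPM in cr lymphomas (log2 fold change 0.63, SE 0.21).

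In the unfolded protein response list 10 of 25 genes had a positive fold change (median -0.04), and 3 were lower at an unadjusted p under 0.05, beside the same 1.32%. Herpud1, a part of the machinery that disposes of misfolded proteins, was at 112, 52.3, 81.8 and 299.7 TPM in co T9, T30, T34 and T2, against medians of 227 TPM in hv and 198 TPM in cr lymphomas (log2 fold change -1.07, SE 0.31). T9, T30 and T34 were below all 14 others, and T2 was above all hv lymphomas. T9, T30 and T2, but not T34, were below all 14 others for Ddit3, the stress factor CHOP of the ATF4 list, which was at 13.6 to 24.6 TPM in co lymphomas, against medians of 34.98 TPM in hv and 43.3 TPM in cr lymphomas (log2 fold change -1.11, SE 0.35).

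Summed levels of the following lists differed between the co tumours. The marginal zone and B-1 list had 15 of 20 positive fold changes and a median of 0.43, which was 1.40 among joined-style names. Its summed level was 1248, 2779, 3328 and 577 TPM in co T9, T30, T34 and T2, against 315 to 3388 TPM in hv and 433 to 1459 TPM in cr lymphomas. The plasma cell list had 13 of 17 tested genes positive and a median of 0.52. It summed to 995, 1292, 1063 and 605 TPM in co T9, T30, T34 and T2, against 452 to 1082 TPM in hv and 413 to 1095 TPM in cr lymphomas. Other lists of B-cell type had medians near that of all genes or below it: 0.05 for follicular and naive, -0.15 for germinal centre and -0.03 for early development. The MHC class I list had 17 of 20 positive (median 0.37), with 6423 and 6025 TPM summed in co T30 and T34, 2902 TPM in T9 and 2155 TPM in T2, against up to 5482 TPM in hv and 2608 TPM in cr lymphomas. Nlrc5, the activator of MHC class I genes, had 26.7, 63.8, 104 and 17.1 TPM in co T9, T30, T34 and T2, against up to 40.5 TPM in hv and 34.9 TPM in cr lymphomas (log2 fold change 1.07, SE 0.43). The NF-kappaB list had 17 of 25 positive (median 0.39), with sums of 277, 1648, 1271 and 524 TPM in co T9, T30, T34 and T2, against up to 1250 TPM in hv and 560 TPM in cr lymphomas, and its median was -0.01 without T30. Interferon-stimulated genes summed to 208, 921, 978 and 149 TPM in co T9, T30, T34 and T2, against 166 to 630 TPM in hv and 69.5 to 233 TPM in cr lymphomas. Among the co lymphomas T30 and T34 had the higher sums for NF-kappaB, interferon and MHC class I genes; the highest hv sums of NF-kappaB and MHC class I genes came close to those of T34.

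**Figure D5:**
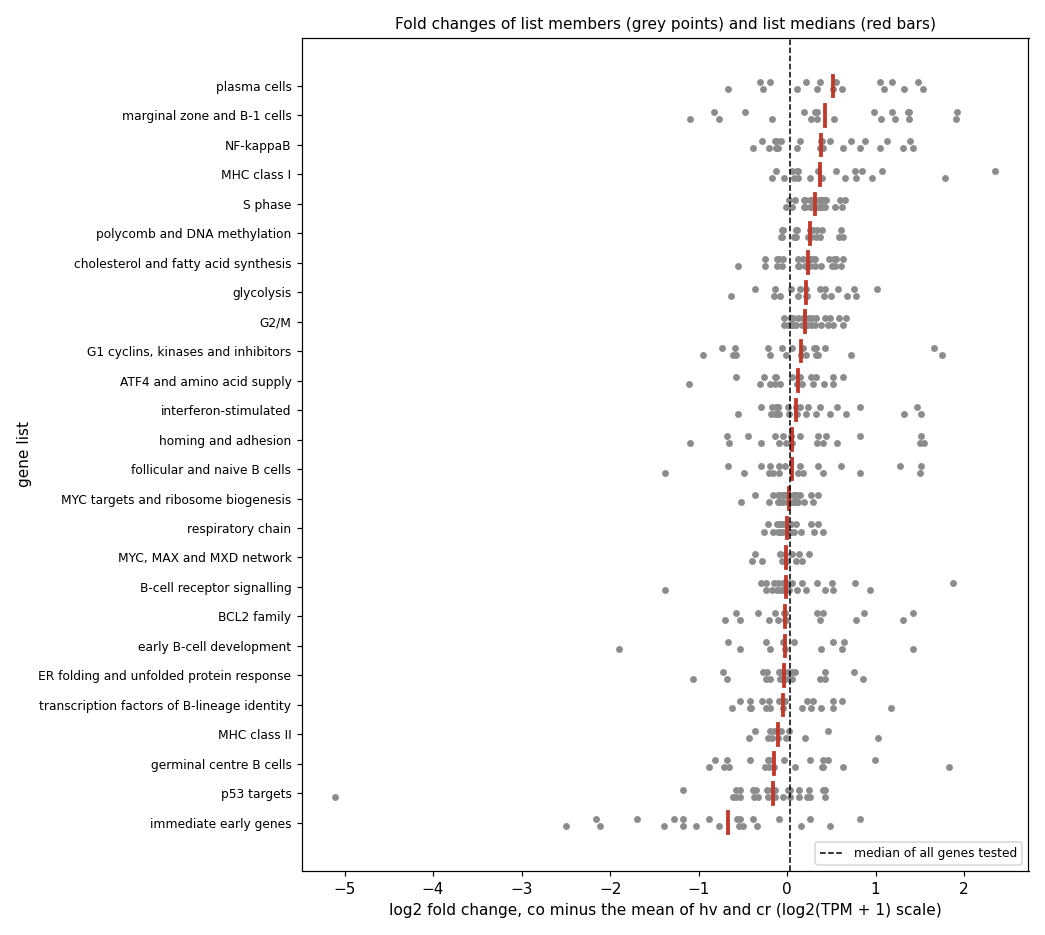
Log2 fold changes, co minus the mean of hv and cr on the log2(TPM + 1) scale, of the tested members (points) and their median (red bars) for 26 gene lists, with the median of all genes tested as a dashed line. No member passed; immediate early genes have the lowest median, -0.67, and plasma cell genes the highest, 0.52.

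The B-cell marker Cd79b, a signalling chain of the B-cell receptor, was at 719, 652, 755 and 513 TPM in co T9, T30, T34 and T2. Other cells were measured beside them. Of the 13 tested T-cell markers 11 had a positive fold change (median 0.77), and 4, Lck, Cd5, Trbc1 and Trbc2, were higher at an unadjusted p under 0.05, beside 1.93% of all genes. Cd2 was lower at that threshold (log2 fold change -0.61, limma adjusted p = 0.999). The T-cell marker sum was 178, 189, 278 and 114 TPM in co T9, T30, T34 and T2, against 104.6 to 298 TPM in hv and 131 to 275 TPM in cr lymphomas. Trbc2, a T-cell receptor constant gene, was at 6.48, 10.1, 11.6 and 0.115 TPM, and Cd3e at 0.187, 0.416 and 1.09 TPM and listed at 0, in co T9, T30, T34 and T2. Lck was at 14.6 TPM in T2, inside the cr range of 3.98 to 16.2 TPM. The part of T cells in Lck and Cd5 was not tested in any co tumour. Erythroid genes summed to 133, 21.0, 1132 and 54.9 TPM in co T9, T30, T34 and T2, and macrophage markers to 245, 67.3, 147 and 13.2 TPM, against 13.0 to 323 TPM in hv and cr lymphomas. In bulk samples fewer cells of a type and less RNA per cell cannot be told apart.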

How the data were processed

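Total RNA of B220-purified B cells was freed of ribosomal RNA, and stranded paired-end libraries were sequenced, as the labels' protocols state. Values deposited by the authors are TPM, the relative abundance of each transcript, for 88198 transcripts, made with FastQC and kallisto 0.43 on mm10 (GRCm38), per the submitters' processing notes. Transcript annotation and strand setting: not given in the sources used here. Genes that overlap, lie antisense to each other or closely resemble each other (variable genes, globins) are uncertain. Transcripts were summed to 30735 genes, 740 of them without a symbol. From the deposited effective lengths, 60.7% to 75.6% of low values came out as whole reads within 0.02, which was used to estimate depth and not for a count test.

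Groups came from the labels. Genes reaching 1 TPM in at least 4 of 18 lymphomas entered limma 3.58.1 in R 4.3.3 (trend, robust) as log2(TPM + 1), with line and site as terms; Benjamini-Hochberg adjustment ran over all genes tested, with a threshold of 0.05. The log2(TPM + 1) scale makes fold changes of low genes too small. The fit was tested on simulated data. Immunoglobulin shares and Myc were compared by two-sided exact permutation over samples. Named genes were up to 14 called genes a side and, where fewer were called, the 8 a side with the smallest p and a mean of 5 TPM in the higher group, without variable segments, predicted genes and pseudogenes; a fixed set of regulators; 2 members of each list; and the 8 genes with the widest range among co lymphomas that reached 20 TPM. Other genes, such as those without group overlap or called among joined-style names, were picked once values were known. Members and lists were chosen with earlier results of these data known. Some items are not reported here. Marker lists of 12 cell types were described by fold change and summed level. Alternatives covered scaling, pseudocount, filter, site, naming style, the sample with disagreeing labels and each lymphoma left out.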

Additional observations from a re-analysis of the deposited data

Results flagged for a closer look

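Of 141 groups of 4 or 7 lymphomas checked for a single sample far from the rest, 22 were marked, 9 of them in co lymphomas; for normally spread values chance marks about 1 in 20 groups, and skewed values may be marked at another rate. Among co lymphomas, Rab43 stood out at 30.03 TPM in lung T30, against 17.6 to 18.8 TPM in the other 3, and Plk2 at 19.2 TPM in lung T9, against 0.134 to 0.592 TPM. T9 also stood apart in its switched antibody classes, as percent of heavy constant TPM: Ighg1 was at 0.718%, against at most 0.00234% in the other co lymphomas, Ighg2b at 1.34%, against at most 0.113%, Ighg2c at 1.10%, against at most 0.0645%, and Igha at 2.34%, against at most 0.504%. The Ighe share of T30 was 0.561%, and the other 3 were listed at 0. The leading heavy variable gene took 26.7% in T30, against 93.5% to 99.2% in the other 3, and the leading kappa gene took 50.4% in T9, where the Igkv4 family took 81.7%, against 91.0% to 98.3% for the leading gene in the other 3.

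Among cr lymphomas, mesenteric node T1 was high in Mpp6 at 98.6 TPM and low in Plk2 at 1.10 TPM, and mesenteric node T35 was high in Dennd3 at 29.1 TPM and in the Ighd share at 13.9%. Lung T14 had 3.57 TPM of Pstpip2, and lung T16 an Ighg3 share of 0.437%. Mesenteric node T20 had an Ighg1 share of 0.263% and an Igha share of 3.81%, and mesenteric node T6 an Ighe share of 0.00490%. Among hv lymphomas, Cytip was at 99.9 TPM in peripheral node T8 and Herpud1 at 114 TPM in lung T16, both low; the Ighe share was high in lung T16 at 0.00821% and the Igha share in lung T7 at 3.94%.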

How the results depend on the processing

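The count of 0 genes for co against hv and cr lymphomas held in 28 of 31 settings. It was 17 among joined-style names, and 0 to 2 when each lymphoma was left out in turn. Against hv alone the count was 3 among joined-style names, 1 with no filter on low values (Gm37097) and 0 to 1 when leaving out a lymphoma; against cr alone it was 1 among lung lymphomas (Gm8369), 4 among joined-style names and 0 to 2 when leaving out a lymphoma. The 35 fold changes kept their direction in all 1073 alternatives. Genes picked for a small p in this comparison were among them, and most alternatives refit nearly the same lymphomas. A kept direction is therefore not independent support. Of these alternatives 3 passed: Calcrl among joined-style names (2.61) and without co T2 (2.68), and Rgs2 among joined-style names (-3.27). Of 806 alternatives for list medians 4 shifted by more than the median SE of the list's members, all among joined-style names: S phase -0.10, G2/M -0.13, marginal zone and B-1 cells 1.40 and MHC class II 0.56. 95 of the 806 had the other sign; the NF-kappaB median was -0.01 without co T30. The Myc difference of 0.01 was -0.28 in lung lymphomas, -0.46 among joined-style names and -0.22 against cr alone, and -0.25 to 0.25 when leaving out a lymphoma. Shares changed sign in 15 of 264 alternatives and passed in 0. In percentage points, the Ighg1 difference was 0.0822 in lung lymphomas, 0.222 among joined-style names and 0.128 against cr alone; Ighm was -1.70 among joined-style names and -0.914 against cr alone. Ighd was -0.151 and Ighg2b 0.0502 among joined-style names, and Igha was -0.0401 with T39 counted as co. When each lymphoma was left out, the differences ran from -0.239 to 0.0580 for Ighg1, -0.348 to 1.70 for Ighm, -0.385 to 0.354 for Igha, -0.00172 to 0.185 for Ighe and -20.1 to 4.07 for the leading heavy gene. The direction of genes at an unadjusted p under 0.05 was unstable: 59.4% were higher as reported, 49.1% with naming style as a term, 43.7% among joined-style names, 68.0% with T39 as co and 48.3% with a pseudocount of 0.1. The cause was not tested in any of these. No paired analysis was possible because the tumour numbers name single tumours, and co shares 1 number with cr and 0 with hv. Estimated depth limits genes under about 1 TPM.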

Other observations

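Single co lymphomas had genes far above the other 17 lymphomas with agreeing labels, picked here after their values were seen. Lung T9 had 336 TPM of Bfsp2, a lens filament gene, against 45.4 TPM in the next lymphoma, and 40.9 TPM of Serpinf1, against 5.65 TPM. Lung T30 had 172 TPM of Cdk6, a partner of D-type cyclins, against 26.5 TPM in the next, 113 TPM of Mef2b, a germinal centre transcription factor, against 23.1 TPM, and 41.2 TPM of the interferon-inducible Ifi211, against 4.97 TPM. T39, not among the 17, had 93.8 TPM of Mef2b and 9.11 TPM of Ifi211. Lung T34 had 514 TPM of the globin gene Hbb-bs, against 79.8 TPM, beside the erythroid sum given above. Node T2 had 25.0 TPM of Evc2, a cilium gene, against 5.39 TPM, 243 TPM of the metallothionein Mt1, against 79.9 TPM, and 298 TPM of Fabp5, a fatty acid carrier, against 119 TPM. No test was made of genes chosen in this way.

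T39, the lymphoma titled hv and described as CO, had values near those of co T30 and T34 for several genes: Cd5 22.4 TPM, Lck 44.1 TPM, Calcrl 20.7 TPM, Bcl2 51.8 TPM, Ccnd2 42.6 TPM and Plk2 0.979 TPM. It differed from them in Ly6k, listed at 0, and in Mtap, at 0.617 TPM against 31.4 and 22.5 TPM. Cdkn2a was also listed at 0, against 170 TPM in T30 and 2.54 TPM in T34. Rab43 and Thumpd3 were at 12.8 and 67.5 TPM in T39, below the co ranges of 17.6 to 30.03 and 73.7 to 85.6 TPM. Arfgef2 and Cyth1 were at 25.9 and 99.6 TPM, above the co ranges of 12.7 to 18.8 and 32.6 to 83.9 TPM. Which genes to name here was decided after their values were seen, so these likenesses do not settle the line of T39. The leading variable genes of T39 were Ighv2-9-1 with 48.4% and Igkv14-100 with 94.6%.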
